A study of Mus musculus with 12 samples.

Results

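The genes described are transcription factors that mark granulosa cells or act in them at ovulation, measured in mouse cumulus cells, the granulosa cells that surround the oocyte. Members were looked up by gene symbol in the array's annotation, and each was read from 1 probe set, a group of probes for 1 transcript. Foxl2, Gata4, Gata6, Wt1 and Foxo1 formed the identity set. Runx1, Runx2, Cebpa, Cebpb and Cited4 formed the ovulatory set. Of the 10 members, 9 had a probe set, out of 19938 genes named on the array. The annotation used here names no probe set for Runx2, which was not analysed here.

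The 12 arrays fell into 3 culture groups of 4. FSH/EGF cultures received 50 mIU/ml FSH together with 10 ng/ml EGF in 293H control medium, GDF9 cultures had GDF9 at 20 ng/ml, and control cultures had 293H control medium at 0.125% by volume. FSH is a pituitary hormone whose receptor sits on granulosa cells, EGF is epidermal growth factor, and GDF9 is a TGF-beta family ligand made by the oocyte. For the GDF9 cultures the labels name no control medium. The mice of all groups were 129SV females, 21 to 26 days old, which had been primed with 5 IU of equine chorionic gonadotropin 44 h earlier. Whole complexes of cumulus cells and oocyte were cultured for 8 h, 20 in a drop of 50 microlitres, after collection in medium with cilostamide, an inhibitor of a phosphodiesterase, at 1 micromolar. The oocytes were therefore present in culture and were stripped off before RNA was taken. Each array held RNA pooled from 2 of the 8 biological replicates of its condition, so that p-values measure the spread between such pools.

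FOXL2 and FOXO1 are forkhead factors. FOXL2 keeps granulosa cells on the ovarian path and represses testis genes in the mouse ovary, and FOXO1 is held out of the nucleus when the PI3K-AKT pathway is active. GATA4 and GATA6 are zinc finger factors of steroid-producing and supporting cells, and WT1 is a zinc finger factor of immature granulosa and Sertoli cells. At ovulation, luteinizing hormone makes the follicle produce EGF-like ligands, which activate the kinases ERK1 and ERK2 in granulosa and cumulus cells. C/EBP-alpha and C/EBP-beta, the products of Cebpa and Cebpb, act downstream of these kinases in mouse ovulation and luteinization. RUNX1 and RUNX2 are runt-domain factors that the ovulatory signal induces, and CITED4 is a cofactor that binds the coactivators CBP and p300.

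Values are on a log2 scale, so that a difference of 1 is a 2-fold change. Array medians ran from 5.41 to 5.53, and no 2 arrays held identical values. The granulosa markers Inha, Fst and Hsd17b1 averaged 11.62, 11.48 and 10.99 over the 12 arrays, and are genes of the labelled cell lineage. Over 17 oocyte markers, the median on an array was 4.54 to 4.97 in FSH/EGF cultures, 4.51 to 4.70 in GDF9 cultures and 4.71 to 6.03 in control cultures. The value of 6.03 was that of control array 4, which stood apart from the other control arrays at 4.71 to 4.79. Control array 1 had the smallest weight, 0.269, in a fit that weighs arrays by their agreement, with 0.485 to 2.04 for the others. Results are therefore also given without control arrays 1 and 4 where that moved them.

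FSH/EGF cultures differed from control cultures in both sets of factors, in opposite directions. All 4 measured ovulatory factors rose and 4 of the 5 identity factors fell at an adjusted p under 0.05 (limma, Benjamini-Hochberg adjustment over 35399 probe sets). Gata4 was the identity factor that did not pass. The changes were broad on these arrays: 29% of all probe sets passed the threshold in this comparison, 16.5% higher and 12.5% lower. For all 8 members that passed, values in the FSH/EGF group lay wholly above or wholly below those of the control group, as did those of 33.2% of all probe sets, 17% above and 16.2% below. The same 8 members passed without control arrays 1 and 4. In bulk RNA of this kind, fewer cells of a type and less RNA per cell cannot be told apart.

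**Figure D1:**
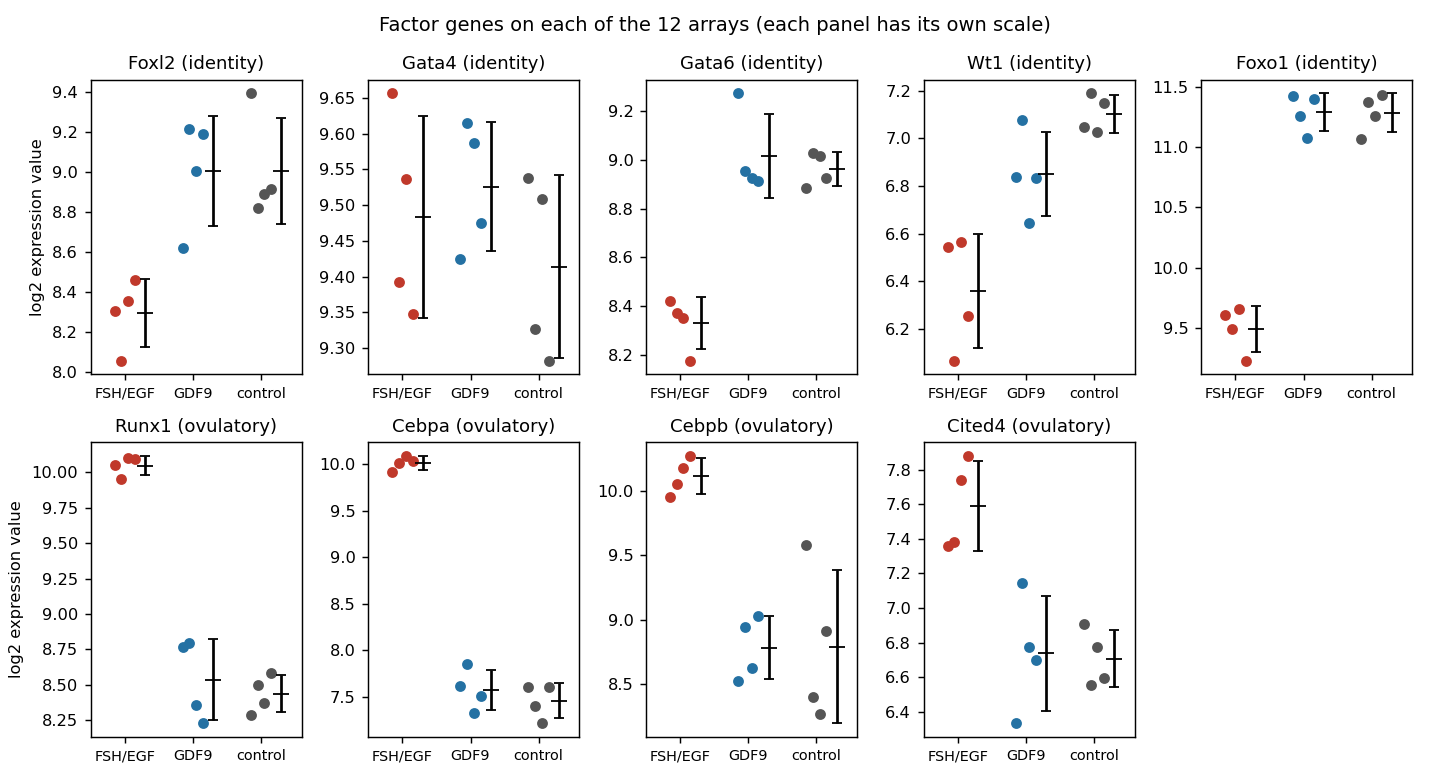
Log2 expression value of each measured factor (vertical axis, own scale per panel) on the FSH/EGF, GDF9 and control arrays, with 1 point per array and a bar for the mean ± SD (n = 4). FSH/EGF arrays lie apart from the other arrays for every factor except Gata4, and GDF9 and control arrays overlap in every panel, although for Wt1 3 of the 4 GDF9 arrays lie below all control arrays.

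Of the identity factors, Foxo1 had the largest fall. Its log2 values were 9.61, 9.50, 9.66 and 9.23 on FSH/EGF arrays, 11.42, 11.26, 11.08 and 11.39 on GDF9 arrays, and 11.07, 11.38, 11.26 and 11.43 on control arrays. Every FSH/EGF array was low, and GDF9 and control arrays covered the same range. The difference between FSH/EGF and control was -1.78 ± 0.12 on the log2 scale (SE, n = 4 each), a level 3.44-fold lower, with an adjusted p of 1.528e-07 (limma). Ordered by this difference, Foxo1 stood at rank 144 from the lowest among 19938 genes.

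Foxl2, the forkhead factor that maintains ovarian fate, changed less. It read 8.30, 8.05, 8.35 and 8.46 on FSH/EGF arrays, 8.62, 9.21, 9.01 and 9.19 on GDF9 arrays, and 9.39, 8.82, 8.89 and 8.91 on control arrays. Control array 1 was the highest of the 12, and the lowest GDF9 array still lay above the highest FSH/EGF array. The FSH/EGF value was 1.64-fold lower than control (-0.71 ± 0.15, SE, adjusted p = 0.004024, limma). Without control arrays 1 and 4 the difference was -0.56 (adjusted p = 0.03036, limma). With FSH/EGF array 3 left out as well, it was -0.58 and no longer passed (adjusted p = 0.05058, limma).

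Of the GATA factors, Gata6 passed the test and Gata4 did not. Gata6 measured 8.42, 8.37, 8.35 and 8.18 on FSH/EGF arrays, 9.27, 8.96, 8.93 and 8.91 on GDF9 arrays, and 8.88, 9.03, 9.02 and 8.93 on control arrays. All FSH/EGF arrays were below all others, and the difference from control was -0.63 ± 0.09 (SE), or 1.55-fold lower (adjusted p = 0.0001843, limma). Gata4 measured 9.66, 9.39, 9.54 and 9.35 on FSH/EGF arrays, 9.42, 9.62, 9.59 and 9.48 on GDF9 arrays, and 9.54, 9.33, 9.51 and 9.28 on control arrays. These 3 groups overlapped. The Gata4 difference between FSH/EGF and control was 0.07, with a 95% interval from -0.13 to 0.26 (adjusted p = 0.5873, limma), and its sign turned under quantile normalization (-0.16). The interval for Gata6 ran from -0.83 to -0.44 and did not reach that for Gata4. The difference between these 2 intervals was not tested.

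Wt1, whose product is a zinc finger factor of immature granulosa cells, was 6.54, 6.06, 6.56 and 6.25 on FSH/EGF arrays, 6.84, 7.08, 6.65 and 6.83 on GDF9 arrays, and 7.05, 7.19, 7.03 and 7.15 on control arrays. FSH/EGF arrays were the lowest. Of the 4 GDF9 arrays, 3 were below every control array, and GDF9 array 2 lay within the control range. The difference between GDF9 and control did not pass (adjusted p = 0.9707, limma). FSH/EGF was 1.68-fold below control (-0.75 ± 0.12, SE, adjusted p = 0.0004429, limma). Ovarian surface epithelium also expresses Wt1. Of 10 markers of that epithelium, 2 were higher in FSH/EGF than in control cultures, the keratins Krt8 and Krt18 (log2 differences of 3.02 and 2.72). Another 4 were lower, with differences from -0.29 to -0.21. Among all genes, each by 1 probe set, 21.9% were higher and 14.9% lower. The difference was above 0 for the 2 keratins alone, with a median of -0.22 over the list, and Upk3b, the third brightest, did not pass at -0.23. The array medians of these markers were 5.10 to 5.21 in FSH/EGF, 5.20 to 5.34 in GDF9 and 5.24 to 5.66 in control cultures, and their part in the result for Wt1 was not tested.

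Of the ovulatory factors, Cebpa rose most. It measured 9.92, 10.01, 10.09 and 10.04 on FSH/EGF arrays, 7.62, 7.85, 7.33 and 7.51 on GDF9 arrays, and 7.61, 7.40, 7.21 and 7.61 on control arrays. FSH/EGF arrays lay close together and above all 8 other arrays. The level was 5.90-fold higher than in control cultures (2.56 ± 0.12, SE, adjusted p = 6.577e-09, limma), at rank 116 from the highest among 19938 genes.

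Cebpb, the relative that binds the same sites as Cebpa, read 9.95, 10.06, 10.18 and 10.27 on FSH/EGF arrays, 8.53, 8.95, 8.63 and 9.03 on GDF9 arrays, and 9.58, 8.40, 8.27 and 8.91 on control arrays. Control array 1 was high, yet below every FSH/EGF array. The FSH/EGF level was 2.50-fold above control (1.32 ± 0.24, SE, adjusted p = 0.0009916, limma), and without control arrays 1 and 4 the log2 difference was 1.78.

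Runx1 had values of 10.05, 9.95, 10.10 and 10.09 on FSH/EGF arrays, 8.77, 8.79, 8.36 and 8.23 on GDF9 arrays, and 8.29, 8.50, 8.38 and 8.58 on control arrays. The FSH/EGF arrays were alike and high, and GDF9 arrays 1 and 2 exceeded all control arrays while GDF9 array 4 was the lowest of all. The rise over control was 3.06-fold (1.61 ± 0.12, SE, adjusted p = 7.527e-07, limma). Runx1 and Cebpa are also factors of blood cells. Of 11 leukocyte markers, 2 were higher in FSH/EGF than in control cultures, Cd68 and Cd52 (log2 differences of 0.50 and 0.46), and 0 were lower. The shares of all genes were 21.9% higher and 14.9% lower. The difference was above 0 for 3 of the 11, with a median of -0.18. Cd3e and Tyrobp, among the 3 brightest of the list, did not pass, at -0.21 and -0.19. Over the 12 arrays they averaged 5.58 and 5.18, near or below the array medians of 5.41 to 5.53. The medians of the 11 markers by array were 4.85 to 5.03 in FSH/EGF, 4.66 to 4.86 in GDF9 and 4.71 to 5.01 in control cultures. The part of these markers in the results for Runx1 and Cebpa was not tested.

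Cited4, the cofactor that binds CBP and p300, had the smallest rise. Its values were 7.36, 7.38, 7.74 and 7.88 on FSH/EGF arrays, 6.33, 7.15, 6.77 and 6.70 on GDF9 arrays, and 6.91, 6.55, 6.77 and 6.59 on control arrays. GDF9 array 2 came closest to the FSH/EGF arrays but did not reach them. FSH/EGF was 1.84-fold above control (0.88 ± 0.17, SE, adjusted p = 0.001561, limma).

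Promoter windows from 250 bases before to 50 after each gene's start were taken from RefSeq (GRCm38.p6) for 6 measured members and for Runx2, 8 windows in all. Gata4, Gata6 and Wt1 are named here without a window. The windows of Cebpa, Cebpb and Cited4 are shown because each holds TATAAA, the letters of a TATA box, which 13.6% of all 32544 windows hold on either strand. Runx1 rose as these members did, and neither of its windows holds TATAAA. A link of TATAAA to the rises was not tested. Runx1 is shown for its RUNX motif, and Foxo1 as the member with the largest fall. In Cebpa, Cebpb and Cited4, capitals mark TATAAA. In Cebpb they also mark the letters TGACG on either strand. For Runx1 the capitals show TGTGGT, which on the printed strand appears as ACCACA. For Foxo1 they show CCAAT, which the printed strand carries in its reverse form, ATTGG.
Cebpa, chr7:35119043-35119342, plus strand: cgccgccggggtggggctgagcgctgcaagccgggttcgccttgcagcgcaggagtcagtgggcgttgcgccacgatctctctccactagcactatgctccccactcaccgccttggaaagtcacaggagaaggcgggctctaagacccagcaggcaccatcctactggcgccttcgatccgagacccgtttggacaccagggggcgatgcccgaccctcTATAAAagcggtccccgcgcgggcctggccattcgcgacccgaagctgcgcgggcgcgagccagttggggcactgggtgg
Cebpb, chr2:167688665-167688964, plus strand: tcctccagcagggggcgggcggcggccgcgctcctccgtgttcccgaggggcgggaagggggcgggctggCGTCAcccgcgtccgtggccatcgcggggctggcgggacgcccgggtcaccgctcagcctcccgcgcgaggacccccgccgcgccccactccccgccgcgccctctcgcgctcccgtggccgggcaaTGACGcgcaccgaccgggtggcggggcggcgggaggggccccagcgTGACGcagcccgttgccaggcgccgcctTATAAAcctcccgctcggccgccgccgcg
Cited4, chr4:120666313-120666612, plus strand: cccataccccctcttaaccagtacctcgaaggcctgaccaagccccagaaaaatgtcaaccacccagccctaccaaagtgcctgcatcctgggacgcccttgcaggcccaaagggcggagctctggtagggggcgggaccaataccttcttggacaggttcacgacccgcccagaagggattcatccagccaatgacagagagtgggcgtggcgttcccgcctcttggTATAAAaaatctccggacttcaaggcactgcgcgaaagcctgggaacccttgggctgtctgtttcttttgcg
Runx1, chr16:92826025-92826324, minus strand: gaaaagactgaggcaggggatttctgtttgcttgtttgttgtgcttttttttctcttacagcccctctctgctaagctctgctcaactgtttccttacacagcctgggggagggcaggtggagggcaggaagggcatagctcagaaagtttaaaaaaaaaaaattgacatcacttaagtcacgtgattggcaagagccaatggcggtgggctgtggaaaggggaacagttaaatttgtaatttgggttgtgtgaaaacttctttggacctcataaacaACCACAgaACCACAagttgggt
Foxo1, chr3:52268087-52268386, plus strand: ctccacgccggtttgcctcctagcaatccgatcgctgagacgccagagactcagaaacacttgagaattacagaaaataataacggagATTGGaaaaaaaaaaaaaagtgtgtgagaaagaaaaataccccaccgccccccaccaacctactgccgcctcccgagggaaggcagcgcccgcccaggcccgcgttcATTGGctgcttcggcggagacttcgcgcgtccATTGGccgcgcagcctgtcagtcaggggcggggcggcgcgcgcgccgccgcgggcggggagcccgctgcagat

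TATAAA stood 30 bases before the start in Cebpa, 22 before in Cited4 and 22 after the annotated start in Cebpb. TGACG, the core letters bound by CREB-family factors, was found at least once in 1 of the 8 windows, that of Cebpb, and in 20.9% of all. It was found 3 times in the Cebpb window, and 1.04% of all windows hold it 3 or more times. The bases of the Cebpb window were 80.67% G or C, and the shares over all windows were not matched for this. TGTGGT, the letters RUNX factors bind, was found 2 times in the Runx1 window shown, and 1.8% of all windows hold it 2 or more times. The other Runx1 window, chr16:92697280-92697579, had 0 matches to it. CCAAT was found 3 times in the Foxo1 window, and 3.35% of all windows hold it 3 or more times. It was found at least once in 4 of the 8 windows, among them those of Cited4 and Runx1, and in 37.4% of all. Motifs were searched on both strands. None of the 8 windows held TGACGTCA, the whole CREB site, which 1.8% of all windows hold. The same was so for the AP-1 motif TGANTCA (7.79% of all windows), for the forkhead motif GTAAACA (3.66%) and for the GATA motif AGATAA (11.2%). TTGCNNAA, a C/EBP motif, was found in the Runx2 window and in 10.8% of all windows, and GGGCGG in 4 of the 8 windows and 35.9% of all. The only overlaps between matches were of GGGCGG with itself, in Cebpb and in Foxo1.

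The Runx1 window shown and the Runx2 window share an unbroken run of 22 bases that holds both ACCACA matches of Runx1. It is shown because it lies in both genes at nearly the same distance after the start, from base 24 in Runx1 and from base 19 in Runx2.
Runx1 and Runx2, shared run: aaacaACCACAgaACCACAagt

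The 5 identity factors had a median difference of -0.71 between FSH/EGF and control cultures, and the 4 ovulatory factors one of 1.47, beside -0.06 over all probe sets. At 2-fold or more, Cebpa, Runx1 and Cebpb were higher and Foxo1 was lower, where 3.59% of all probe sets were higher and 1.54% lower. As a summary per array, the mean deviation from the control mean was taken over each set. For the identity set it was -0.65, -0.88, -0.66 and -0.86 on FSH/EGF arrays, and it lay between -0.11 and 0.07 on GDF9 arrays and between -0.01 and 0.03 on control arrays. For the ovulatory set it was 1.47, 1.50, 1.68 and 1.72 on FSH/EGF arrays, -0.08 to 0.34 on GDF9 arrays and -0.19 to 0.25 on control arrays. The contrast of the sets, ovulatory minus identity, was 2.36 ± 0.19 (SD, n = 4) on FSH/EGF arrays, 0.00 to 0.27 on GDF9 arrays and -0.17 to 0.22 on control arrays. FSH/EGF arrays thus stood apart from both other groups on both axes. These scores have no test, since the members were chosen with results of these arrays known.

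**Figure D2:**
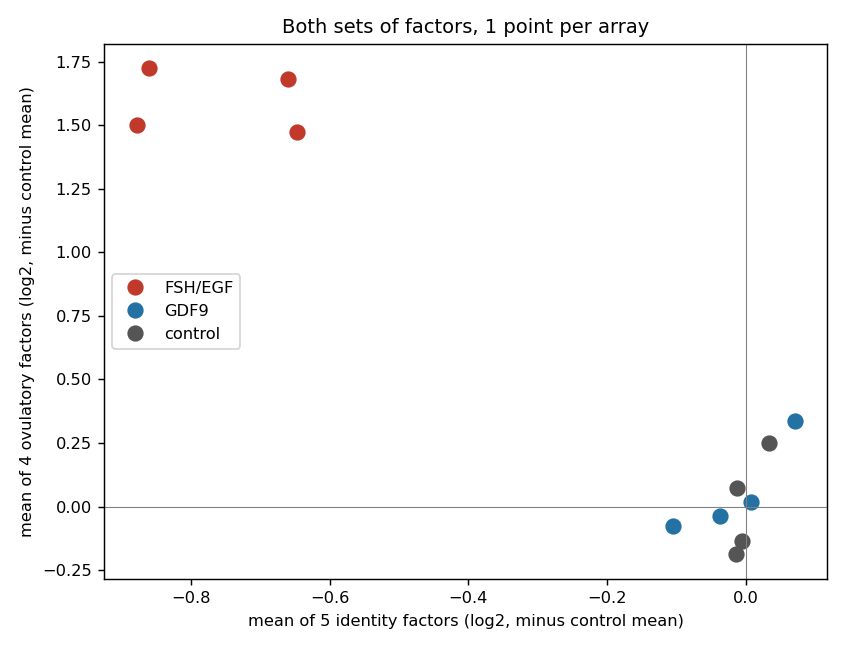
Mean log2 deviation from the control mean over the 5 identity factors (horizontal axis) and over the 4 ovulatory factors (vertical axis), with 1 point per array. The 4 FSH/EGF arrays lie at 1.47 to 1.72 on the vertical axis and below -0.6 on the horizontal one, and the GDF9 and control arrays lie around 0 on both.

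FSH/EGF cultures were also set against GDF9 cultures, a comparison that uses the same FSH/EGF arrays as the one with control. Again 4 identity factors were lower and 4 ovulatory factors higher, where 22.5% of all probe sets passed, 13.6% higher and 8.96% lower. The groups did not overlap for these 8 members, nor did they for 26.8% of all probe sets, with 14.9% above and 11.9% below. At 2-fold or more, Cebpa, Runx1 and Cebpb were higher and Foxo1 was lower, by a rule that 2.94% of probe sets met above and 1.58% below. Foxo1 differed by -1.79 (adjusted p = 1.668e-07, limma), Foxl2 by -0.71 (adjusted p = 0.004491, limma) and Gata6 by -0.69 (adjusted p = 0.0001055, limma). Wt1 was 1.41-fold lower (-0.49 ± 0.12, SE, adjusted p = 0.009308, limma), against 1.68-fold in the comparison with control. Among ovulatory factors, Cebpa differed by 2.44, Runx1 by 1.51, Cebpb by 1.33 and Cited4 by 0.85, with adjusted p from 1.086e-08 to 0.002259 (limma). Gata4 differed by -0.04, with an interval from -0.24 to 0.15.

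Between GDF9 and control cultures, 0 of the 9 factors passed the test, and 0 had an unadjusted p under 0.05. Of all 35399 probe sets, 0% passed (limma, smallest adjusted p 0.847), and 1590 had an unadjusted p under 0.05. Arrays of the groups did not overlap for 1.98% of all probe sets and for 0 of the 9 factors. Wt1 came nearest, at -0.25 with an interval from -0.51 to 0.0055 (unadjusted p = 0.0543, adjusted p = 0.9707, limma). The 95% intervals, not adjusted for the number of factors, were -0.25 to 0.26 for Foxo1, -0.33 to 0.34 for Foxl2, -0.14 to 0.25 for Gata6 and -0.08 to 0.31 for Gata4. For the ovulatory factors they were -0.13 to 0.37 for Cebpa, -0.17 to 0.37 for Runx1, -0.33 to 0.39 for Cited4 and -0.52 to 0.50 for Cebpb. Each of these intervals, except that of Gata4, left out the difference found between FSH/EGF and control for the same factor.

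**Figure D3:**
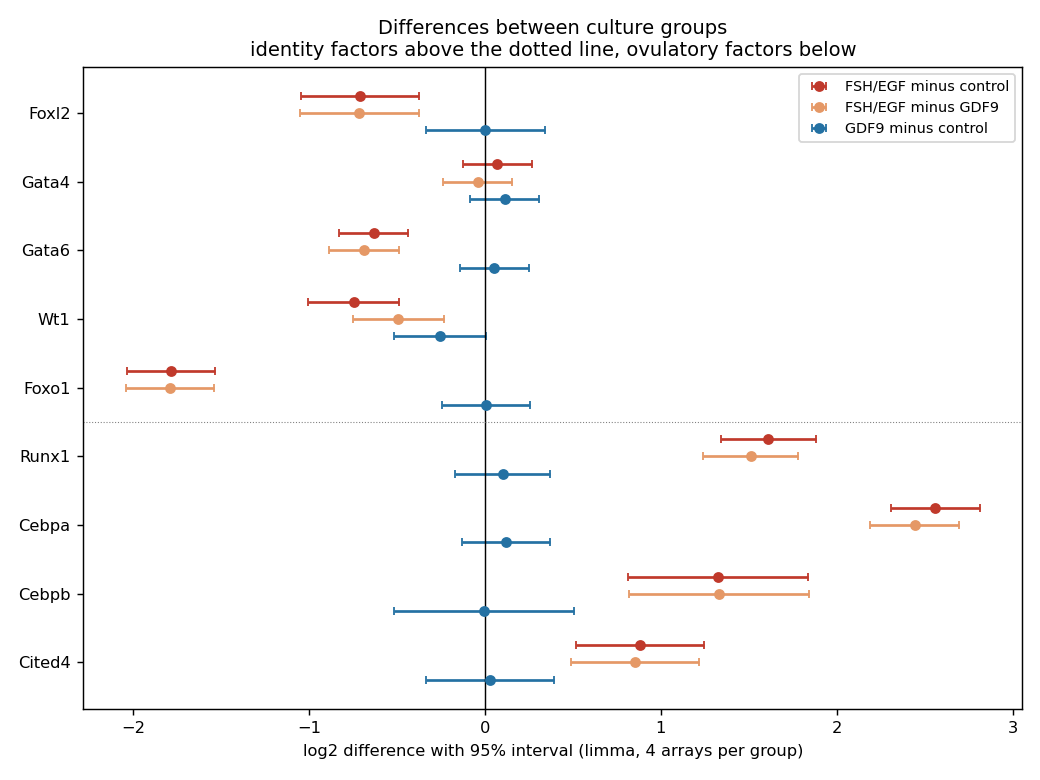
Log2 difference with its 95% interval (horizontal axis, limma, 4 arrays per group) for each factor (rows) in the 3 comparisons, with identity factors above the dotted line. FSH/EGF differs from control and from GDF9 for all factors but Gata4, between -1.79 and 2.56, and all intervals for GDF9 minus control cross 0.

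Relatives and partners of the factors, taken from lists chosen with these data known, moved in both directions. Lists share genes, so their counts are not independent, and all differences in them are on the log2 scale. For genes, each by 1 probe set, 21.9% were higher and 14.9% lower in FSH/EGF than in control cultures. Of 13 measured family relatives, 4 were higher and 1 lower, with a median difference of 0.09. Cited2, a relative of Cited4 that binds the same coactivators, was 2.88-fold higher (1.53 ± 0.15, SE, adjusted p = 6.566e-06, limma). It read 11.80, 11.76, 11.74 and 12.10 on FSH/EGF arrays, 10.22, 10.27, 9.58 and 10.08 on GDF9 arrays, and 10.39, 10.43, 10.06 and 10.42 on control arrays, so that every FSH/EGF array was high. Cebpg, which dimerizes with other C/EBP proteins, differed by 0.85 and Gata3, a factor of T cells, by 0.43. Foxo3, the forkhead relative that restrains activation of primordial follicles, was lower by a difference of -0.32. Without control arrays 1 and 4 Foxo3 did not pass (adjusted p = 0.1286, limma).

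Of 18 partners and cofactors, 7 were higher and 4 lower, with a median of 0.08. Hif1a, an oxygen-regulated factor that also binds CBP and p300, differed by 2.34 ± 0.09 (SE, adjusted p = 1.547e-09, limma), and Tle3, a Groucho corepressor that runt factors recruit, by 1.49. Esr2, the oestrogen receptor of granulosa cells, differed by -2.29, and Nr5a2, a nuclear receptor needed for ovulation in mice, by -2.09. Cbfb, the subunit that RUNX proteins bind, did not pass, at 9.15 in FSH/EGF and 9.00 in control cultures (adjusted p = 0.3952, limma); it was singled out after its value was seen. Of 13 regulators of ovarian fate, 2 were higher and 4 lower, with a median of -0.28. Besides Esr2 these were led by the ligand gene Bmp2 (-1.90) and the oestrogen receptor gene Esr1 (-1.58) on the lower side, and by Ctnnb1, which encodes beta-catenin, on the higher (0.81).

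Of 11 genes of Sertoli cells, the supporting cells of the testis, 2 were higher and 2 lower, with a median of -0.18. Sox9, a testis-determining gene that FOXL2 represses in the mouse ovary, read 7.77, 8.11, 7.91 and 8.77 on FSH/EGF arrays, between 5.94 and 6.23 on GDF9 arrays, and 6.35, 5.90, 6.09 and 5.87 on control arrays. FSH/EGF array 4 was the highest, and even the lowest FSH/EGF array was above all others. Sox9 was 4.24-fold higher than in control cultures (2.08 ± 0.19, SE, adjusted p = 2.905e-06, limma). Foxl2 was lower on the same arrays, and a link between them was not tested. The difference was above 0 for 2 of the 11 Sertoli genes, Sox9 and Etv5. Etv5, an ETS factor that Sertoli cells use, differed by 1.80, whereas Dhh, the Sertoli hedgehog ligand, differed by -0.55 and Ptgds, a prostaglandin D synthase, by -0.33. The last 2 did not pass when FSH/EGF array 3 was left out along with control arrays 1 and 4 (adjusted p = 0.05451 and 0.09855, limma).

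Of 14 measured granulosa genes that the identity factors are known to regulate, 8 were lower and 2 higher, with a median of -0.63. Fshr, the FSH receptor gene, differed by -3.14 ± 0.09 (SE, adjusted p = 1.024e-10, limma) and Amhr2, which encodes the receptor for anti-Mullerian hormone, by -2.16, beside Esr2 and Nr5a2. The 2 that were higher were Star, the cholesterol carrier of steroid synthesis, at 2.02, and Inhba, an activin subunit, at 1.02, the last named after its value was seen. Fshr read 5.24, 5.37, 5.24 and 5.18 on FSH/EGF arrays, 8.49, 8.26, 8.54 and 8.59 on GDF9 arrays, and 8.24, 8.49, 8.44 and 8.43 on control arrays. Of 10 granulosa markers, 8 were lower and 0 higher, and their array median was 7.97 to 8.41 in FSH/EGF, 9.67 to 9.75 in GDF9 and 9.48 to 9.65 in control cultures. These are nearly the same genes counted again, since 9 of the 10 markers are also in the list of regulated granulosa genes, all but Nr5a1.

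Of 16 genes that FOXO factors are known to regulate, 6 were higher and 2 lower, with a median of 0.21. Bcl6, a transcriptional repressor, differed by 2.23, Fbxo32, a ubiquitin ligase subunit, by 1.68, Cited2 by 1.53 and Eif4ebp1, a brake on translation, by 0.58. The 2 lower genes were Sesn3 (-0.40) and Cat (-0.23), named after their values were seen, and 8 genes did not pass. A link of any of these genes to the fall of Foxo1 was not tested. The count of lower genes varied between 0 and 5 over the alternative settings. It was 0 without control array 3 or FSH/EGF array 1, 2 or 4, and 1 without control array 2 or 4, GDF9 array 1, 3 or 4, or FSH/EGF array 3. Of 12 measured ovulatory genes regulated by C/EBP or RUNX factors, 5 were higher, 2 lower and 5 did not pass, with a median of 0.13. Sult1e1, an oestrogen sulfotransferase, differed by 6.87, Ptgs2, the cyclooxygenase of ovulation, by 4.83, Timp1, a metalloproteinase inhibitor, by 4.43, and Star by 2.02. Sult1e1 read 10.23, 11.12, 10.47 and 10.87 on FSH/EGF arrays, 3.91, 3.77, 3.76 and 3.88 on GDF9 arrays, and 3.76, 3.80, 3.85 and 3.78 on control arrays. The 2 lower genes were Rgcc (-0.71), named after its value was seen, and Ptgds (-0.33). The lower count was 1 in place of 2 without FSH/EGF array 1, 2 or 4.

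Of 19 other transcription factors of ovulation, 6 were higher and 4 lower, with a median of -0.03. Besides Hif1a, Fosl1, a subunit of the factor AP-1, differed by 2.19, Stat3, a factor of cytokine signalling, by 1.80 and Crem, a cAMP-responsive factor, by 1.34. The 4 lower genes were Fos (-1.12), Egr1 (-0.73), Epas1 (-0.55) and Nrip1 (-0.39), named after their values were seen. The count of 4 lower genes was 0 without control array 4, FSH/EGF array 1 or FSH/EGF array 3, 1 without FSH/EGF array 2, and 2 without control array 1. Against GDF9 cultures, the higher and lower counts were 4 and 0 for family relatives, 7 and 4 for partners, 2 and 4 for ovarian fate, and 2 and 2 for Sertoli genes. They were 2 and 8 for granulosa genes, 6 and 2 for FOXO targets, 6 and 2 for C/EBP and RUNX genes, and 5 and 5 for the other ovulatory factors, where 18.6% of genes were higher and 10.5% lower. Between GDF9 and control cultures, 0 genes of these lists passed (limma).

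**Figure D4:**
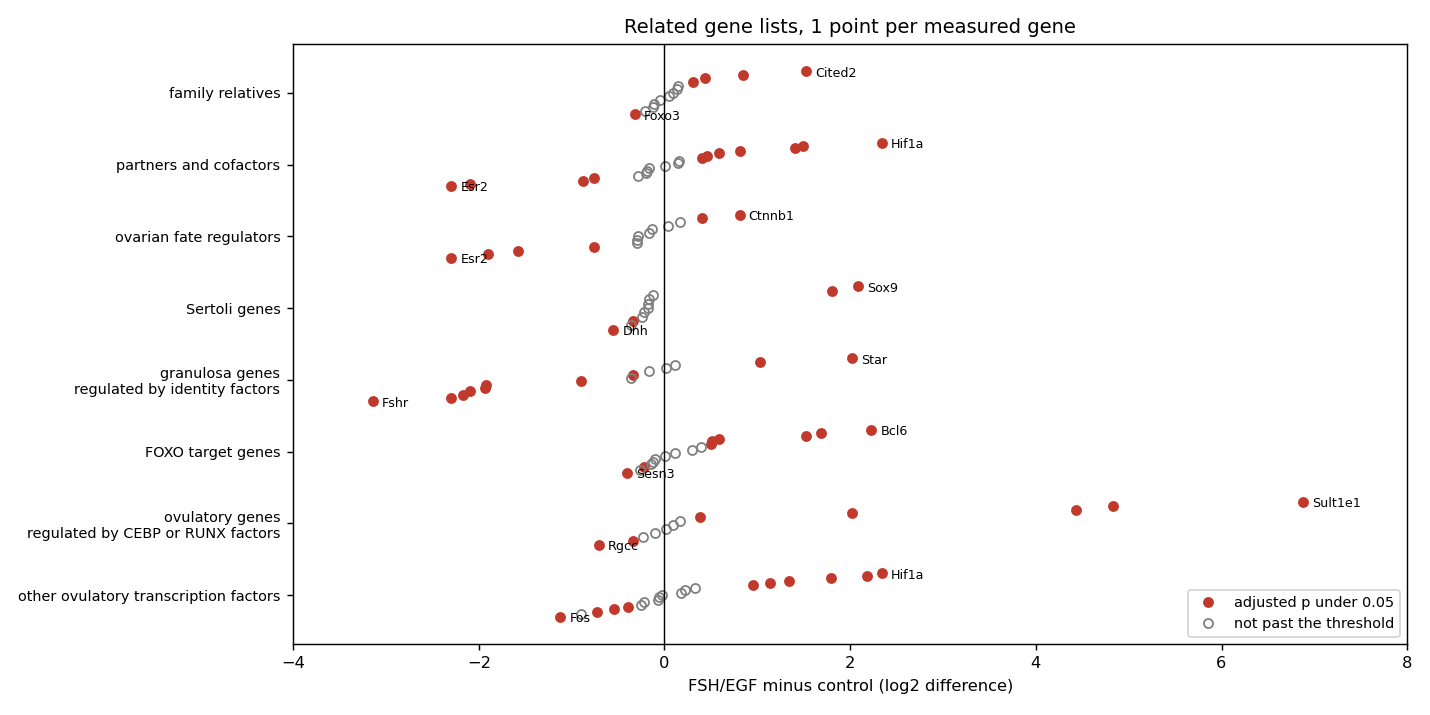
Log2 difference between FSH/EGF and control (horizontal axis) for every measured gene of the 8 related lists, filled where the adjusted p was under 0.05, with the lowest and highest gene of each list named. Granulosa genes regulated by identity factors lie mostly below 0, down to -3.14 for Fshr, and Sult1e1 lies farthest above 0, at 6.87.

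**Figure D5:**
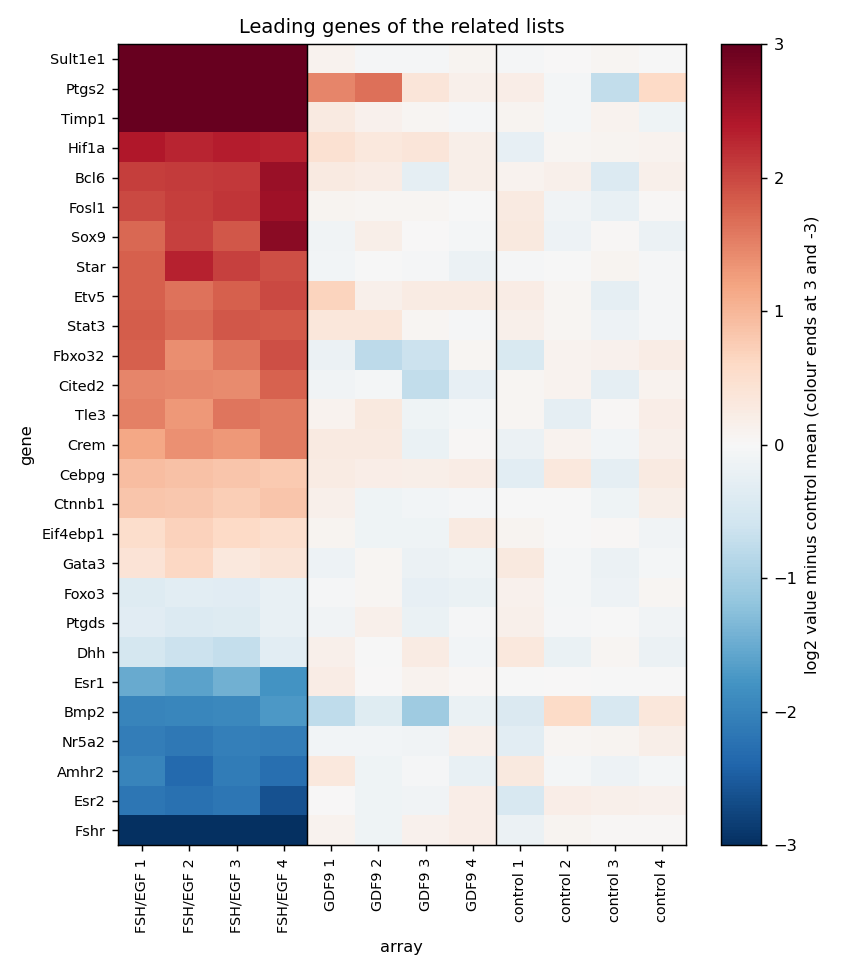
Log2 value minus the control mean, by colour, for the leading genes of the related lists (rows, ordered by the FSH/EGF mean) on the 12 arrays (columns), with colours ending at 3 and -3. FSH/EGF arrays differ in 1 direction for each gene. Ptgs2 is the gene with the most colour on GDF9 arrays, at 8.56 and 8.75 on GDF9 arrays 1 and 2 against 7.10 for the control mean. GDF9 arrays 3 and 4 read 7.46 and 7.24 for Ptgs2, within the control range of 6.35 to 7.70.

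Markers of other cell types were read on the same arrays. Of all genes, each by 1 probe set, 21.9% were higher and 14.9% lower in FSH/EGF than in control cultures. Of 17 oocyte markers 1 was lower in FSH/EGF than in control cultures and 0 were higher. The 3 brightest averaged 6.33 (Zar1), 6.22 (Ooep) and 5.54 (Gdf9) in FSH/EGF cultures, against 6.67, 6.49 and 5.85 in control cultures. These 3 did not pass, and control array 4 was their highest control array, at 6.98, 7.20 and 6.88. The other control arrays read 6.36 to 6.81 for Zar1, 6.05 to 6.43 for Ooep and 5.34 to 5.62 for Gdf9. Of 11 markers of theca and stroma, which also express Gata4 and Gata6, 3 were lower and 1 higher. Among the 3 brightest, Acta2, a smooth muscle actin, differed by -2.34 and Col1a1, a collagen, by -0.31, and Ptch1, a hedgehog receptor, was 8.59 in FSH/EGF and 8.77 in control cultures. The array median of that list was 5.54 to 5.79 in FSH/EGF, 5.54 to 5.79 in GDF9 and 5.63 to 5.83 in control cultures. Of 10 endothelial markers 2 were higher, led by Cdh5 (a log2 difference of 3.18), and 0 were lower. Cldn5 and Vwf, at 5.70 and 5.42 in FSH/EGF and 6.04 and 5.42 in control cultures, did not pass. The difference was above 0 for 2 of the 10 endothelial markers, with a median of -0.03. Their array median was 5.01 to 5.04 in FSH/EGF, 4.92 to 5.03 in GDF9 and 4.92 to 5.08 in control cultures. The part of these markers in the results was not tested.

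The genes whose profiles over the 12 arrays were most like those of the leading members were found by the root mean square difference between profiles centred on their own mean. For Cebpa they were Slc22a22 (0.135), a solute carrier gene, Sdc1 (0.141), which encodes a cell surface proteoglycan, Parm1 (0.141), and Hspb8 (0.141), a small heat shock protein gene. For Foxo1 they were Spin2c (0.118), Smpdl3b (0.124), Slc25a13 (0.125), a mitochondrial carrier gene, and Slc44a3 (0.132). Sdc1 was 2.68 higher on the log2 scale in FSH/EGF than in control cultures and Spin2c differed by -1.82.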

How the data were processed

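Cumulus cells were profiled on 12 arrays, 4 per culture group, grouped by the labelled agent. The deposited values are on a log2 scale and had already been normalized by the authors. Per the submitters' processing notes the tools were RMA, Partek and GCOS, with no version or role. No genome build or annotation version is given in the sources used here. RNA was extracted independently and pooled in pairs per the labels' protocols. Arrays give no read depth, so their number limits the precision.

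Of 35399 probe sets, 21789 had 1 gene symbol, 1621 several, and 11989 are unnamed here. A gene was read from its brightest probe set; each measured member had 1. limma 3.58.1 (R 4.3.3) fitted the 3 group means to the 12 arrays together, with Benjamini-Hochberg adjustment over all probe sets and a threshold of 0.05, and was tested on simulated data.

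Members and lists were chosen with earlier results of these data known. Named genes were all members, up to 4 genes per list with the largest FSH/EGF minus control difference past the threshold, and the 3 brightest of each marker list, plus the 4 genes nearest in profile to Cebpa and to Foxo1. Cd52, Cbfb, Inhba, Dusp6, Sesn3, Cat, Rgcc, Fos, Egr1, Epas1 and Nrip1 fall outside this rule and were chosen after their values were seen. Alternatives changed the moderation, array weights, dim probe sets, normalization, probe set choice and the replicate block, and left out arrays, 25 settings in all. Promoter windows came from RefSeq, build GRCm38.p6.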

Additional observations from a re-analysis of the deposited data

Results flagged for a closer look

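Among 36 groups of 4 arrays, 3 held an array whose gap to its neighbour, as a share of the group's range, was above Dixon's 95% critical value, which chance gives in about 1 of 20 groups. Foxl2 was 9.39 on control array 1, with the nearest control array at 8.91 (ratio 0.830). Gata6 was 9.27 on GDF9 array 1, with the nearest GDF9 array at 8.96 (ratio 0.881). The ovulatory minus identity score was 0.266 on GDF9 array 2, with the nearest GDF9 array at 0.029 (ratio 0.897). Without control array 1 the Foxl2 difference between FSH/EGF and control was -0.58 (adjusted p = 0.008219, limma).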

How the results depend on the processing

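The 8 called members kept direction and call in 199 of 200 combinations of member and alternative for FSH/EGF minus control, the other being Foxl2 at -0.58 (adjusted p = 0.05058, limma) when control arrays 1 and 4 and array 3 of FSH/EGF were all left out, and in 200 of 200 for FSH/EGF minus GDF9. Gata4 turned to -0.158 under quantile normalization in FSH/EGF minus control, and ranged from -0.100 to 0.00305 in FSH/EGF minus GDF9 with 1 array left out. The remaining turns of sign were in GDF9 minus control, where 0 members passed. Under quantile normalization Foxl2 was -0.0495 and Foxo1 -0.0254. With array weights Gata6 was -0.0161, Foxo1 -0.0782, Runx1 -0.0218 and Cebpb 0.229, and with equal array medians Cebpb was 0.0287. Without control arrays 1 and 4, with or without FSH/EGF array 3, Gata6 was -0.00519, Foxo1 -0.0292 and Cebpb 0.447. With 1 array left out, Foxl2 ranged from -0.0663 to 0.132, Gata6 from -0.0319 to 0.0886, Foxo1 from -0.0671 to 0.0754, Cebpb from -0.180 to 0.255 and Cited4 from -0.106 to 0.165. The cause of these turns was not tested. Probe sets lower in FSH/EGF than in control numbered 4413, against 2588 with equal array medians and 2737 without the 3 arrays named; 57% of calls were higher in the main setting, 71.9% with equal medians, 52.4% with quantile normalization and 51% with array weights, which made 13101 calls. Leaving out GDF9 array 3 gave 1 call in GDF9 minus control, Dusp6 (0.95, adjusted p = 0.0103, limma), named after its value was seen. The identity score in FSH/EGF cultures was -0.94 under quantile normalization, against -0.76. With the replicate block, FSH/EGF minus control had 9600 calls against 10269 and no member's call changed. Same-number correlations ran from -0.389 to 0.221 with 7 of 12 over 0.1, and 3 of 12 arrays correlated best with their own number. These values do not settle whether replicate numbers pair the arrays. Counts of the related lists moved by over 1.5 times in 41 of 400 cases.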
